A study of Mus musculus with 5 samples.

Results

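REX1 occupancy was taken from a single chromatin immunoprecipitation sequencing (ChIP-seq) library, made with a V5 antibody from female mouse embryonic stem cells (mESCs) of 129/Sv-Cast/Ei background whose genotype is given as WT with FLAG-V5-REX1. Its control is a library titled input from WT cells of the same sex and background, for which the V5 antibody is also listed, so that the control cells lacked the tagged protein. The antibody therefore read the tag and not endogenous REX1, and neither how the tagged REX1 was expressed nor whether the line was 1 clone is given in the sources used here. A protocol with 15 µM MG132 (a proteasome inhibitor) for 3 h, 2 mM DSG (a protein crosslinker) and 1% formaldehyde is attached to all 5 samples of the series, but it is written for the RNF12 libraries, and whether the REX1 cells received it is not stated. The peaks described are all rows of the REX1 list on chromosomes 1 to 19 and X, which numbered 95744 of the 96050 rows in that list and of 291776 rows in the 3 lists of the series. With 1 library and no replicate, no test between conditions was possible, the sequencing depth behind the list is unknown, and every interval below is a 95% Wilson interval that covers counting error only.

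REX1, encoded by Zfp42, is a zinc finger protein of the YY1 family that arose by retrotransposition, and it is used as a marker of undifferentiated mESCs. Its zinc fingers resemble those of YY1, and both proteins recognise related DNA words built on the core ATGGC. REX1 is a substrate of the E3 ubiquitin ligase RNF12 (gene Rlim), and in female cells it is known for repressing Xist, the RNA that silences 1 X chromosome, and for acting on Tsix, the antisense partner of Xist. A ChIP-seq peak is a region where reads of the immunoprecipitate exceed the control, its summit is the base with the highest pile-up, and its fold is the height at the summit over control as the peak caller gave it.

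The sequences at the strongest sites are shown first because many of them carry the 8-base word ATGGCNGC (N is any base), which was more frequent at summits of higher fold. All are from the plus strand of GRCm38 (mm10), and each is named for the gene with the nearest transcription start site (TSS). Capitals mark ATGGCNGC, or its complement where the word lies on the minus strand. The first group holds sites with the word. Windows of 71 bases are centred on the summit, and windows of 28 bases are centred on the word where a longer one would enter an untranslated region.
Wrb, chr16:96145159-96145229: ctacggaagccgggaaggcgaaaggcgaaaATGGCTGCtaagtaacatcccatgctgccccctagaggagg
Siglec1, chr2:131096669-131096739: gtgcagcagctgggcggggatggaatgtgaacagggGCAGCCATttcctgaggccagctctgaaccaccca
Tmem80, chr7:141328238-141328265: cagcggcaaaATGGCGGCcgtgcggcca
Gm26651, chr13:51976095-51976165: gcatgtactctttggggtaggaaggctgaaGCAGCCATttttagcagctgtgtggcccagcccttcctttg
Gm5091, chr17:15247880-15247950: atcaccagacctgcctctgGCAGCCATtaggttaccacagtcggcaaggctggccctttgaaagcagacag
Eif4a1, chr11:69672553-69672623: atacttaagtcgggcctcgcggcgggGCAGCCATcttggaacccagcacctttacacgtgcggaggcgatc
BC051142, chr17:34398994-34399064: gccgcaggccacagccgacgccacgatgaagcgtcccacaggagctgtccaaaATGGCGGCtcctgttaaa
Zswim4, chr8:84231838-84231908: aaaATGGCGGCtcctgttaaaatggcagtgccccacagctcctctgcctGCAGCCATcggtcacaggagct
Taf5, chr19:47067755-47067782: cagccgcaagATGGCGGCgctggcggag
Kif17, chr4:138262487-138262514: acgcccccggGCAGCCATggcctcggag

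The second group holds strong sites without ATGGCNGC within 50 bp of the summit. Here capitals mark the shorter word ATGGCNG or its complement, which was looked for only after these sequences had been seen.
Papolg, chr11:23904055-23904125: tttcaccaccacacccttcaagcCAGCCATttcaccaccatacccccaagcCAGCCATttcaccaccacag
Sox30, chr11:45980036-45980106: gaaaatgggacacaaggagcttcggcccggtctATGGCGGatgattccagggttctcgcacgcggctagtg
Lrig1, chr6:94647582-94647652: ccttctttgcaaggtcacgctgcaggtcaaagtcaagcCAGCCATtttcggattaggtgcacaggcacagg
Tsix, chrX:103449154-103449224: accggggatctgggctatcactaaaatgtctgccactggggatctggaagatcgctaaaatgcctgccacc

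Of the 20 peaks with the highest fold, 14 had ATGGCNGC within 50 bp of the summit, 8 of them among the 11 peaks within 1 kb of a TSS and 6 among the 9 peaks further away. The core ATGGC was found at 19 of the 20, and the exception was the Tsix peak. Folds in this set ran from 32.8 to 45.9, widths from 242 to 1615 bp, and no −log10 q was below 134. All 11 peaks of the set that lay within 1 kb of a TSS were also within 300 bp of it.

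The strongest peak of the list (chr16:96145084-96145823, fold 45.9) had its summit 213 bp upstream of Wrb, which encodes a receptor for tail-anchored proteins in the endoplasmic reticulum. The second (fold 43.4) lay between genes, 8837 bp upstream of Papolg, a poly(A) polymerase gene. Its peak sequence matched itself best when shifted by 28 bases, at 52.8% of positions, and the 71 bases above hold the ATGGCNG word in 2 copies. The third (fold 43.3) lay 9939 bp upstream of Siglec1, a sialic acid-binding lectin of macrophages. Distal sites were thus present among the highest folds, and the intronic peaks of Zswim4 (fold 34.3, 5182 bp downstream of a TSS), Ski (fold 33.3, 14628 bp) and Lrig1 (fold 32.8, 7908 bp) belonged to them as well. Ski encodes a repressor of SMAD signalling, and Lrig1 a transmembrane inhibitor of growth factor receptors.

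Promoters of housekeeping genes were represented by Eif4a1, an RNA helicase of translation initiation (fold 35.6, summit 165 bp upstream), by Taf5, a subunit of the general factor TFIID (fold 34.2, 12 bp downstream), and by Dtd2, a D-aminoacyl-tRNA deacylase (fold 34.1, 10 bp downstream). The Tmem80 peak had fold 40.7 and its summit lay 83 bp downstream of the TSS in an untranslated exon. Sox30, a Sox gene of spermatogenesis, had a peak of fold 36.8 with the summit 239 bp upstream. Bscl2, which encodes the lipid droplet protein seipin, had a peak of fold 36.1 with the summit 57 bp upstream, where the annotation also places an untranslated exon of the neighbouring gene Gng3. The Armc6 peak (fold 34.1, 6 bp upstream) likewise fell in an untranslated exon of its neighbour Sugp2. The Kif17 peak, at a kinesin gene, had fold 32.9 and its summit in coding sequence 15 bp downstream of the TSS. The remaining peaks of the set were nearest to Spata24 (fold 41.0, 2728 bp upstream), Gm26651 (fold 38.2, 2916 bp downstream in a lincRNA exon), the pseudogene Gm6858 (fold 37.8, 4014 bp downstream), the lincRNA Gm5091 (fold 37.0, 2 bp downstream) and BC051142 (fold 35.4, 207 bp downstream).

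Across the list the median fold was 4.47 (quartiles 3.77 and 5.57, range 1.37 to 45.9), the median −log10 q was 5.39 and the median width 161 bp. Folds were coarse, with 6376 distinct values, and 1840 peaks shared the value 4.46722, so equal medians in different groups of peaks can reflect shared values. High folds were rare: 3069 peaks (3.21%) reached 10, 214 reached 20 and 36 reached 30. The word ATGGCNGC lay within 50 bp of the summit in 35.3% (33.6 to 37.0) of the peaks of fold 10 or more, in 59.3% (52.7 to 65.7) of those of fold 20 or more and in 23 of the 36 of fold 30 or more.

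When the peaks were ranked by fold and divided into 10 equal groups, the share with the word fell from 24.9% (24.0 to 25.8) in the top 10% to 12.3% in the second, and then in smaller steps to 3.46% (3.11 to 3.84) in the bottom 10%. Windows of the same length centred 300 bp from the summit held it in 1.64% at the top and 1.48% at the bottom, so that summits exceeded their flanks by 15.2-fold and by 2.33-fold. The share was 8.30% over all summits, and 4.15% over windows of the same length centred on the 93145 TSSs of protein-coding genes. Proximity to genes followed another course. Summits within 1 kb of a TSS made up 45.6% (44.6 to 46.6) of the top 10%, 30.3% (29.4 to 31.2) of the sixth and 39.2% (38.2 to 40.2) of the bottom 10%. Among peaks with a −log10 q of at least 5 this gap between top and bottom was not resolved, with 47.2% (45.8 to 48.5) against 45.8% (44.5 to 47.2). The rise at the bottom was smaller when peaks were ranked by −log10 q, where the top 10% had 50.2%, the ninth group 27.8% and the bottom 10% 31.1%. Peaks of the bottom 10% by fold also differed in repeat content, with 27.2% of summits in soft-masked sequence (the repeats of the reference) against 15.4% in the top 10%, and in width, with a median of 147 bp against 285 bp. The part of repeats in the course of the promoter share was not tested.

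**Figure D1:**
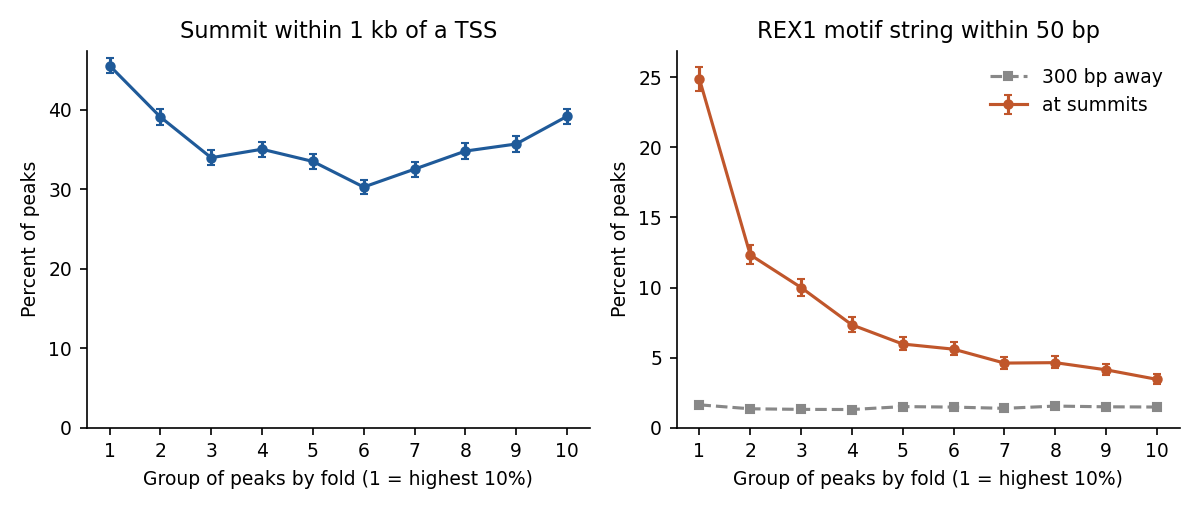
Percent of REX1 peaks (y axes) in 10 equal groups of the list by fold over control (x axes, 1 is the highest), with 95% Wilson intervals. Left, summits within 1 kb of a TSS fell from 45.6% to 30.3% in the sixth group and stood at 39.2% in the last. Right, summits with ATGGCNGC within 50 bp fell from 24.9% to 3.46%, while windows 300 bp away (squares) stayed between 1.31% and 1.64%.

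Copies of the word sat close to the summit. In the top 10%, 67.2% (65.4 to 69.0) of 2573 copies had their centre within 20 bp of the summit, with a median distance of 13.5 bp. In the bottom 10% the same share was 50.6% (45.4 to 55.8) of 350 copies, with a median of 19.5 bp. The shorter core was more frequent still: ATGGC was present within 50 bp in 66.5% (65.6 to 67.5) of top-10% summits against 16.1% of their flanks, and in 55.4% (54.3 to 56.6) of the 7193 top-10% summits without ATGGCNGC. It was present in 19.4% of the windows at protein-coding TSSs.

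**Figure D2:**
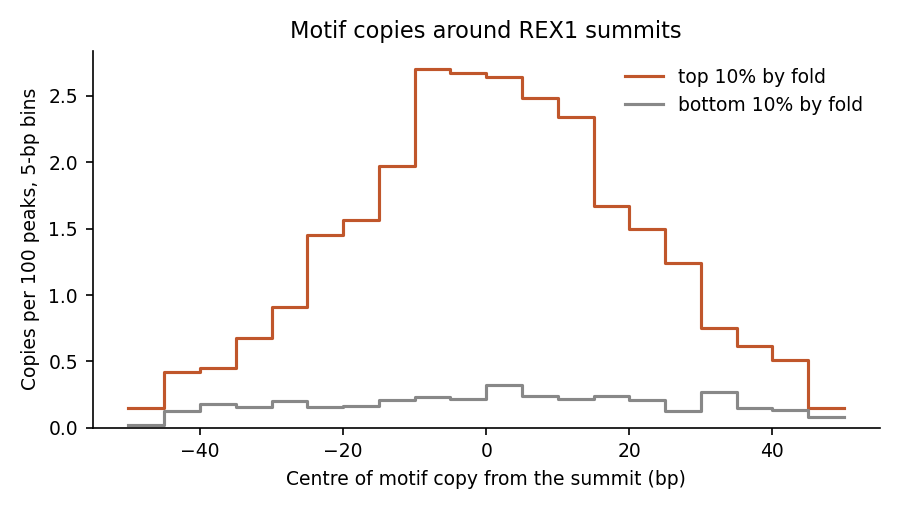
Copies of ATGGCNGC per 100 peaks (y axis) in 5-bp bins of the distance from the copy's centre to the summit (x axis, bp), for the top and bottom 10% of peaks by fold. Copies of the top 10% lay around the summit, with 67.2% within 20 bp. The bottom 10% had far fewer copies, so its line is low, and 50.6% of them were within 20 bp. Copies had to lie whole within 50 bp, which trims the outermost bins.

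Other words were searched on both strands in the same windows. AAGATGGC, a longer form of the YY1 word that overlaps ATGGCNGC, was at 11.1% (10.5 to 11.8) of top-10% summits and 4.30% (3.91 to 4.73) of bottom-tenth summits. It was more frequent at distal summits (7.26%) than at summits within 1 kb of a TSS (2.79%). Their flanks had the same order, with 1.49% against 0.681%. The NRF1 string was at 2.80% (2.49 to 3.15) of the top 10% and 0.444% of its flanks. The ETS word CCGGAAGT was at 1.33% (1.12 to 1.58) of the top 10% and 0.345% of its flanks. Windows of protein-coding TSSs held the NRF1 string at 2.28% and the ETS word at 2.39%, the latter above its share at top-10% summits. The KLF and SP word GGGNGNGGC was at 10.1% of top-10% summits against 5.57% of flanks, and at 10.3% of TSS windows. The CTCF string was at 2.06% against 0.684%, the ESRRB word TCAAGGTCA at 0.668% against 0.240%, the E-box CACGTG at 2.82% against 1.64%, and the CRE word TGACGTCA at 0.407% against 0.162%. The octamer ATGCAAAT of POU factors was at 0.470% (0.351 to 0.628) of top-10% summits and 0.376% of flanks, a difference within the interval. Over all peaks it was less frequent at summits (0.288%, 0.256 to 0.324) than in flanks (0.461%), as it was in the bottom 10% (0.125% against 0.454%).

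The word also occurs at many sites with no peak. The 20 chromosomes held 260490 copies of ATGGCNGC, of which 8650 (3.32%, 3.25 to 3.39) had a REX1 summit within 50 bp. This share differed with the base at N. A summit was present at 10.8% (10.3 to 11.3) of the 15919 copies of ATGGCGGC and 8.98% (8.51 to 9.48) of the 13367 copies of ATGGCCGC, but at 3.94% (3.83 to 4.06) of ATGGCTGC and 1.19% (1.13 to 1.25) of ATGGCAGC. The first pair contains CG and is common in CpG-rich promoters, so the words were also divided by location. Further than 1 kb from a protein-coding TSS, ATGGCCGC (6.08%, 5.66 to 6.52) stood above ATGGCGGC (4.49%, 4.15 to 4.85), followed by ATGGCTGC (3.32%, 3.21 to 3.43) and ATGGCAGC (0.981%, 0.926 to 1.04). Within 1 kb the order was ATGGCGGC (45.4%, 43.5 to 47.4), ATGGCCGC (34.8%, 32.3 to 37.4), ATGGCTGC (16.8%, 15.8 to 17.9) and ATGGCAGC (6.0%, 5.38 to 6.68). In both settings ATGGCAGC had the lowest share, and its interval did not meet that of any other word.

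The bases before the word went with occupancy as well. Among the words of 3 preceding bases with at least 200 copies, AAG before ATGGCNGC had a summit at 667 of 7508 copies (8.88%, 8.26 to 9.55) and GCG at 115 of 835 (13.8%, 11.6 to 16.3). TAT had one at 12 of 2090 (0.574%, 0.329 to 1.00). These contexts differ in their CpG content and location, and the part of either was not tested.

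Copies near promoters were occupied most often just downstream of the start site. From the TSS to 100 bp downstream, a summit lay at 52.6% (49.9 to 55.3) of 1348 copies on the strand of the gene and at 38.8% (35.6 to 42.1) of 858 copies on the opposite strand. In the 100 bp upstream these shares were 35.5% (31.4 to 39.8) and 32.9% (29.3 to 36.6). Between 500 and 1000 bp upstream they were 6.49% and 6.16%, and at the same distance downstream 9.78% and 10.2%. The strands thus differed beyond their intervals only in the first 100 bp downstream, among the 8 distances compared.

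**Figure D3:**
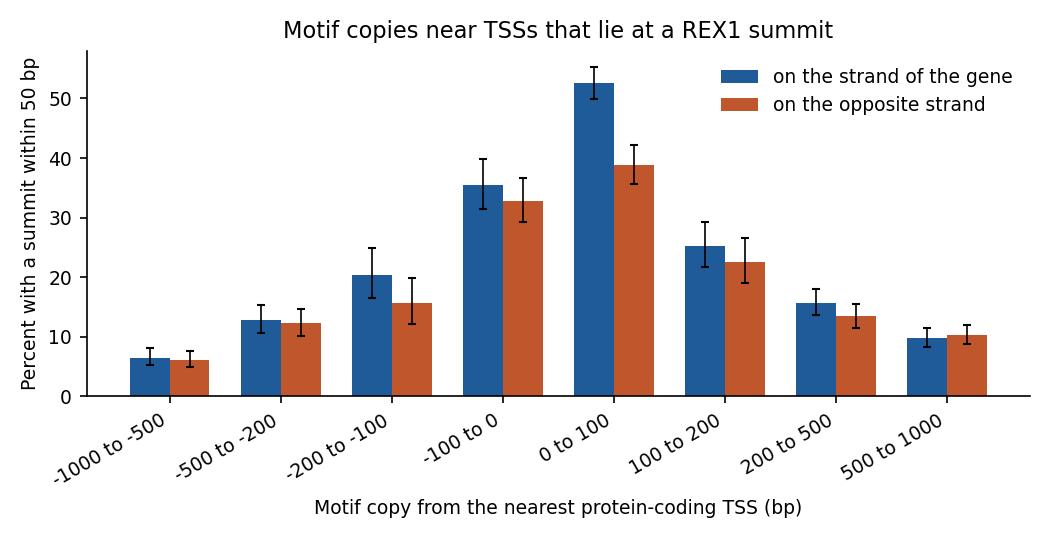
Percent of ATGGCNGC copies that had a REX1 summit within 50 bp (y axis), by distance from the nearest protein-coding TSS (x axis, bp, negative is upstream) and strand, with 95% Wilson intervals. The highest bar is 52.6%, for copies on the strand of the gene in the first 100 bp downstream, where copies on the opposite strand reached 38.8%.

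ATGGC contains ATG, and in that stretch 653 of the 1348 copies on the gene strand were annotated start codons. A summit lay at 63.7% (59.9 to 67.3) of them and at 42.2% (38.5 to 45.9) of the other 695 copies. The 2 groups differed in their words, so the shares were taken per word. They were 74.5% (69.8 to 78.6) against 64.1% (57.8 to 70.0) for ATGGCGGC, and 64.2% (55.9 to 71.8) against 32.3% (26.3 to 39.1) for ATGGCTGC. They were 48.6% (37.6 to 59.8) against 54.5% (44.2 to 64.5) for ATGGCCGC, and 24.3% (16.0 to 35.2) against 16.6% (11.7 to 22.9) for ATGGCAGC, with overlapping intervals for all but ATGGCTGC. Counted from the peaks instead, 54.5% (52.5 to 56.4) of 2499 copies at promoter summits lay on the strand of the gene, where all TSSs within 1 kb share 1 strand. Of all copies within 1 kb of a protein-coding TSS, with or without a peak, 51.2% (50.3 to 52.0) were on the gene strand. A start codon lies on the strand of its own gene, and this was the gene strand for all 384 start codons at promoter summits and for 922 of the 938 among all copies, so that leaving them out lowers both shares by construction. Without them the share at promoter summits was 46.2% (44.1 to 48.4) of 2115, and the share of all copies was 47.7% (46.9 to 48.6) of 12983, with overlapping intervals.

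Identical stretches showed how far the surroundings of the word repeat. With 10 bases on each side, 8269 of the 8650 copies at summits (95.6%) had surroundings found at no other summit, and only 5 stretches were found at 10 or more. They are shown because reads from near-identical copies may not be assignable to 1 of them, which leaves the individual peaks uncertain.
Chromosome 8 repeat: cagtctcaagATGGCTGCcacacacagg
Dispersed repeat: tgtggtggcaATGGCTGCcagtgcggcg
Chromosome 6 repeat, first: ctgcgcctgcATGGCCGCctctcagctt
Chromosome 6 repeat, second: taaggccgctATGGCAGCagcaagtccc
The chromosome 8 stretch occurred 21 times in the reference, between positions 55112626 and 55540515, and all 21 copies had a summit (fold 4.06 to 10.4). The dispersed stretch had a summit at 17 of 18 copies, on 13 chromosomes, with folds of 2.71 to 8.82, and lay outside the soft-masked repeats. The chromosome 6 stretches had summits at 25 of 45 and 17 of 55 copies. The fifth stretch, in a soft-masked repeat with 1268 identical copies, had a summit at 24 (1.89%). Single peaks could also hold many copies. The peak with most, in an intron of Fam155a (chr8:9296741-9297683, fold 7.75), held 34 copies in 943 bp, and its sequence matched itself at 97.6% of positions when shifted by 54 bases. The next, in the coding sequence of the X-linked gene Zfp36l3, had fold 14.3 and 11 copies in 735 bp. Zfx, an X-linked zinc finger gene, had a peak of fold 20.9 with 5 copies. These 3 peaks were chosen after their values were seen. The median fold was 4.44 for the 85613 peaks with no copy in their whole width, 5.52 for the 9196 with 1, 6.30 for the 830 with 2, 8.09 for the 76 with 3 and 7.94 for the 29 with 4 or more. Wider peaks have more room for copies, and the median width rose over the same groups from 158 to 192, 246, 350 and 381 bp.

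By location, 36% (35.7 to 36.3) of summits lay within 1 kb of a TSS, and the others were mostly intergenic (28.5% of all peaks) or intronic (27.5%), with 5.18% in coding exons. Distal summits held the word about as often (8.18%, 7.97 to 8.40) as summits near a TSS (8.51%, 8.22 to 8.81), and their median fold was 4.47 against 4.54. Windows of near-TSS summits had a median of 6 CpG and those of distal summits 2, and 5.98% against 28.2% of summits were soft-masked. Distal summits in coding exons had the word at 10.1% (9.31 to 11) and intergenic summits at 7.09% (6.79 to 7.4). The flanks of these 2 groups held it in 1.85% and 1.16%, in the same order.

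Of 21755 protein-coding genes, 14678 had a REX1 summit within 1 kb of a TSS, a share of 67.5% (66.8 to 68.1). Of 9603 long non-coding RNA genes, 3020 did, a share of 31.4%. A peak of the top 10% by fold lay within 1 kb of 4089 protein-coding genes, or 18.8% (18.3 to 19.3). These shares are the background for the gene lists below. Here and in the lists, a TSS of any annotated transcript counted, so such a summit can lie well inside a gene, as those of Pax6 and Tet1 did. The strongest summit of each occupied protein-coding gene had a median fold of 5.73 (quartiles 4.59 and 7.51). One summit was found at 5174 genes (23.8%), 2 at 4750 (21.8%), 3 at 2567 (11.8%), 4 at 1208 (5.55%) and 5 or more at 979 (4.50%).

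Of 78 mitochondrial ribosomal protein genes, 77 had a summit within 1 kb and 38 (48.7%, 37.9 to 59.6) had a top-10% peak, with a median fold of 7.21 among those occupied. The highest were Mrpl52 (fold 31.8, summit 30 bp upstream), Mrpl48 (24.2), Mrpl40 (20.2) and Mrpl47 (19). Of 70 translation factor genes, 63 had a summit and 33 (47.1%, 35.9 to 58.7) a top-10% peak, and here Eif2d (fold 28.9), Eif4ebp2 (21.5), which encodes an inhibitor of the cap-binding factor eIF4E, and Eif4g2 (16.5) followed Eif4a1. Of 84 respiratory chain genes, 78 had a summit and 33 (39.3%, 29.5 to 49.98) a top-10% peak. The highest, Ndufb5, a subunit of complex I, shared the peak of Mrpl47 (chr3:32736304-32737601), since both genes, on opposite strands, start within it. Uqcrc1 of complex III (fold 16.9) and Ndufs6 (15.8) were also among the highest, both with ATGGCNGC at the summit.

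Other housekeeping lists also had nearly all members occupied. All but 1 of 39 proteasome genes had a summit, and 14 a top-10% peak (35.9%, 22.7 to 51.6), led by Psmd8 (fold 20.3), Psmc6 (13.9), Psma2 (13.4) and Psmb1 (13), none with ATGGCNGC within 50 bp. Of 64 splicing factor genes, 61 had a summit and 21 a top-10% peak (32.8%, 22.6 to 45.0), led by U2af1 (fold 18), Srsf2 (13.8), Srsf3 (13.3) and Sf3b4 (12.8). The cytosolic ribosomal protein genes were occupied at 80 of 84, but only 18 had a top-10% peak (21.4%, 14.0 to 31.3), a share close to the background of 18.8%. Their highest folds were at Rpl10l, a testis-expressed paralogue also counted among germline genes (18.3), Rpl13a (17.6), Rpl5 (10.8) and Rpl15 (10.6). Replication-dependent histone genes, which lie in clusters and share peaks, had a summit at 62 of 65 and a top-10% peak at 25 (38.5%, 27.6 to 50.6), with Hist2h2bb highest (fold 14.8), followed by Hist1h4j (12), Hist1h2bm (11.8) and Hist1h4k (11.2).

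Among regulators of chromatin, 31 of 32 Polycomb genes had a summit and 10 a top-10% peak (31.2%, 18 to 48.6), an interval that held the background of 18.8%. Cbx7, the Polycomb reader abundant in mESCs, was highest (fold 20.0), followed by L3mbtl2 (16.9), Rbbp7 (15.2) and Mtf2 (14.3). A list of 13 genes of DNA methylation held enzymes that write or remove it and other factors, such as Uhrf1, Zfp57, Trim28 and Setdb1. Of the 13, 12 had a summit (92.3%, 66.7 to 98.6) and 3 a top-10% peak (23.1%, 8.18 to 50.3). These intervals held the backgrounds of 67.5% and 18.8%. Tet2 (fold 18.1, 10 bp downstream of a TSS, with ATGGCNGC) and Tet1 (12) were the highest, followed by Dnmt3a (8.37) and Tet3 (6.11). Imprinted genes had a summit at 45 of 52 and a top-10% peak at 16 (30.8%, 19.9 to 44.3), led by Nespas (fold 14.5), the antisense RNA of the Gnas domain, Meg3 (12.7) and the peak shared by Snrpn and Snurf (11.6, chr7:60005058-60005251, with ATGGCNGC). Hox genes had a summit at 37 of 39 and a top-10% peak at 7 (17.9%, 8.98 to 32.7), near the background, with Hoxa7 (fold 13), Hoxc5 (12.5), Hoxc12 (12.2) and Hoxb5 (11.6) highest.

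Naive pluripotency factors had a summit at 19 of 22 genes (86.4%, 66.7 to 95.3, which held the background of 67.5%) and a top-10% peak at 5 (22.7%, 10.1 to 43.4). The peak of Pou5f1, which encodes OCT4, had fold 19.7 and its summit in an intron 722 bp downstream of an annotated TSS, and 8 summits lay within 1 kb of the gene's TSSs. Fbxo15 (12.8), Tbx3 (11.3) and Nr0b1 (8.60), which encodes DAX1, followed, and only the Fbxo15 summit had ATGGCNGC. Primed-state and lineage factors had a summit at 19 of 20 genes and a top-10% peak at 4 (20.0%, 8.07 to 41.6), led by Pax6 (14.7), Otx2 (9.04), Sox1 (8.02) and Mixl1 (7.99). The intervals of both lists for top-10% peaks held the background of 18.8%. Germline and 2-cell genes had a summit at 17 of 22 (77.3%, 56.6 to 89.9) and a top-10% peak at 6 (27.3%, 13.2 to 48.2), intervals that held the backgrounds of 67.5% and 18.8%. The 6 included Rpl10l, Stk31 (fold 14.1), Taf7l (13.2) and the germ cell helicase Ddx4 (11.6). Zfp genes, zinc finger genes named by that prefix, had a summit at 345 of 394 (87.6%, 83.9 to 90.5) and a top-10% peak at 88 (22.3%, 18.5 to 26.7, which held the background of 18.8%), led by Zfp40 (22.8), Zfp329 (22.7), Zfp532 (19) and Zfp318 (18.9).

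Of all the gene lists, 4 lay below the background of 67.5%. Olfactory receptor genes had a summit at 25 of 1092 (2.29%, 1.56 to 3.36), vomeronasal receptor genes at 3 of 326 (0.920%, 0.313 to 2.67), keratin genes at 19 of 53 (35.8%, 24.3 to 49.3) and clustered protocadherins at 30 of 56 (53.6%, 40.7 to 66.0). Exceptions with high folds were Pcdhga8 (fold 18), Krt86 (10.1) and Olfr222 (9.85), all with ATGGCNGC at the summit. The other named members were Pcdhga6 (9.99), Pcdhga7 (8.89) and Pcdhb4 (8.61), then Krt1 (9.43), Krt42 (6.48) and Krt71 (6.40), and then Olfr533 (6.25), Olfr536 (6.20) and Olfr354 (5.30). The 3 occupied vomeronasal genes were Vmn1r1 (4.84), Vmn1r85 (4.19) and Vmn1r4 (3.6). Of these, Pcdhga6, Krt1, Olfr533, Olfr536 and Vmn1r1 also had the word, and the others did not.

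**Figure D4:**
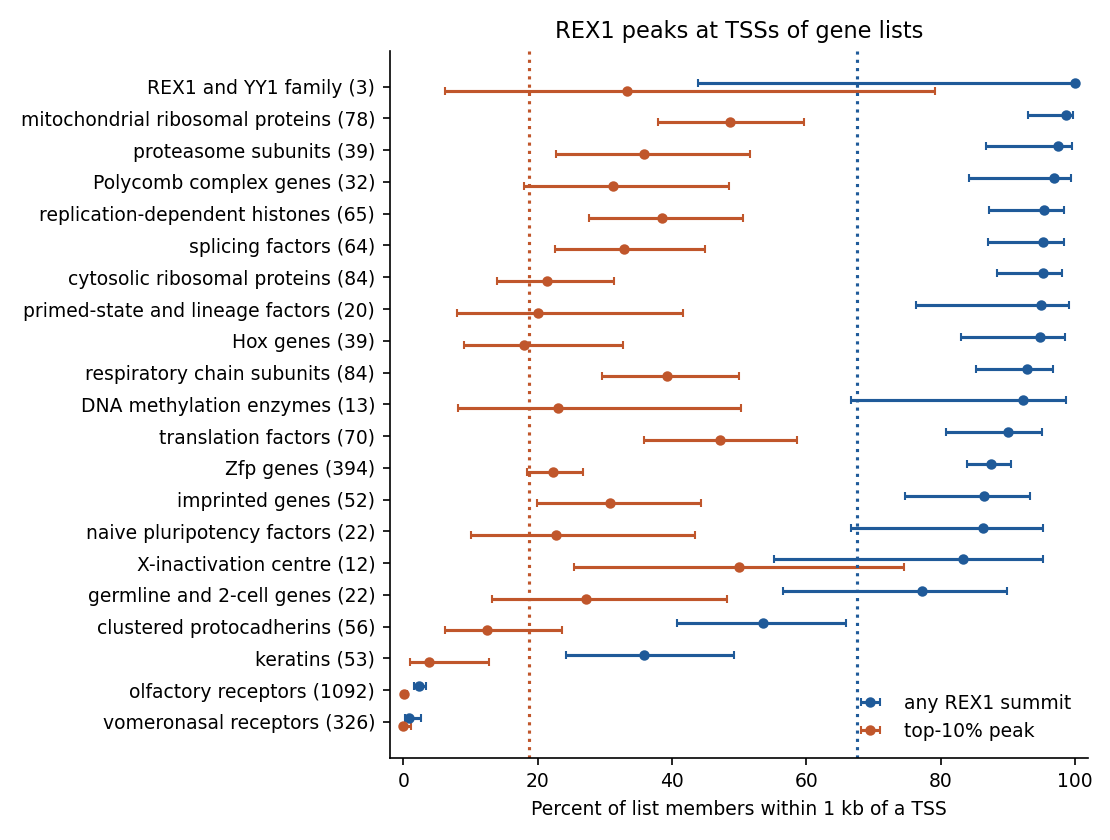
Percent of each list's genes (x axis) with any REX1 summit (blue) or a top-10% peak (orange) within 1 kb of a TSS, with 95% Wilson intervals and the number of genes in brackets. Dotted lines are the shares of all protein-coding genes, 67.5% and 18.8%. Mitochondrial ribosomal proteins reached 48.7% for top-10% peaks, and olfactory receptors 2.29% for any summit.

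The X-inactivation centre held the fourth strongest peak of the list. It spanned 1615 bp of Tsix (chrX:103448146-103449760, fold 41.2, −log10 q 225, the highest −log10 q in the list), with the summit 1467 bp downstream of an annotated Tsix TSS in an exon. Its sequence held no ATGGCNGC and matched itself at 56.7% of positions when shifted by 34 bases, and the 71 bases printed above show the repeated phrase. Because the summit was over 1 kb from a TSS, the strongest Tsix peak within 1 kb was another, of fold 8.59, 156 bp upstream and with ATGGCNGC. Across Xist and Tsix with 5 kb on each side there were 17 summits. The second highest (chrX:103481517-103482441, fold 19.8, rank 224) lay in Xist 1281 bp downstream of its TSS and had ATGGCNGC at the summit and 2 copies in the peak. A small peak of fold 5.39 lay 34 bp downstream of the Xist TSS, and 8.59, 9.08 and the 2 highest values were the only folds above 6 in the region. Of the 4, the Tsix peak of fold 41.2 was the one without the word.

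**Figure D5:**
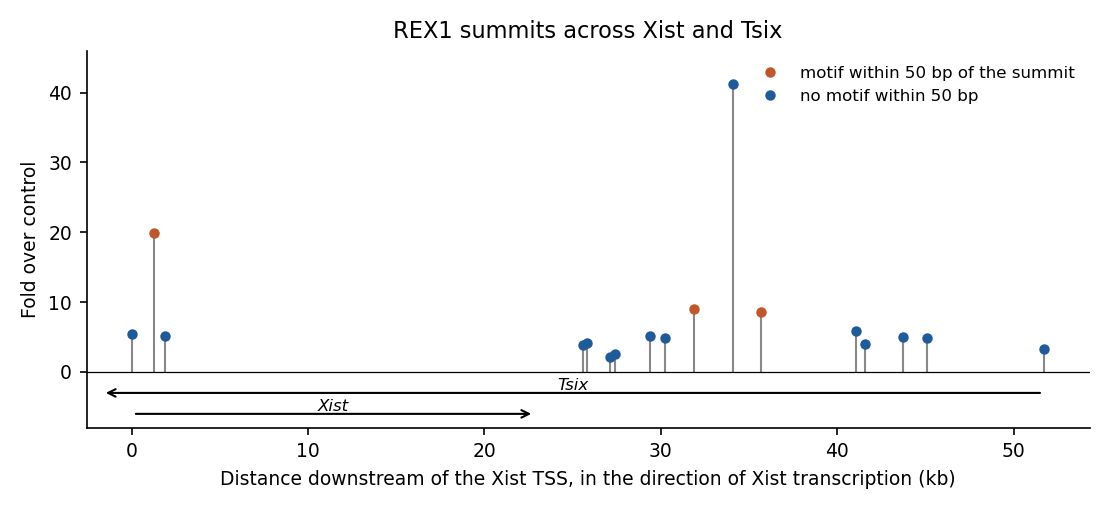
Fold over control (y axis) of the 17 REX1 summits across Xist and Tsix, by distance downstream of the Xist TSS in the direction of Xist transcription (x axis, kb). Arrows give each gene's extent and direction, and orange points had ATGGCNGC within 50 bp. The peaks of fold 41.2 in Tsix and 19.8 in Xist stand above all others.

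Of the other genes listed for the X-inactivation centre, Jpx, a non-coding RNA gene that acts positively on Xist, had a peak of fold 24.4 (rank 85) with the summit 99 bp upstream and ATGGCNGC. Rlim, which encodes RNF12 itself, had 2 summits within 1 kb, the higher of fold 11.2 at 162 bp upstream. Chic1 (fold 11.1), Ftx (10.2), Nap1l2 (7.74), Cdx4 (5.17) and Zcchc13 (4.29) each had a summit within 1 kb without the word. Tsx had none within 1 kb but was the nearest gene for 3 summits. The symbol Ppnr, also listed, belongs in this annotation to a gene on chromosome 19 and had no summit within 1 kb. Any summit was within 1 kb of 10 of the 12 genes, and a top-10% peak within 1 kb of 6 (interval of the share 25.4% to 74.6%). The 12 include Ppnr, and 11 of them are on the X chromosome. The share of all protein-coding genes with a top-10% peak, 18.8%, lies below this interval. It is not a matched background, because the list also holds non-coding RNA genes such as Jpx, Ftx and Xist. No top-10% share was taken for non-coding genes, so an excess in this list was not tested.

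The genes of the REX1 and YY1 family each had a summit within 1 kb of a TSS, from the top to the bottom 10% by fold. With 3 genes the interval (43.9% to 100%) held the share of all protein-coding genes, 67.5%. Zfp42 had a peak of fold 6.42 with the summit 7 bp upstream of its TSS, and Yy2, a retrogene of Yy1, one of fold 7.4 at 104 bp upstream. The higher of 2 summits at Yy1 had fold 2.85, 96 bp downstream of a TSS, which placed it at rank 91560. None of the 3 had ATGGCNGC within 50 bp.

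Peaks were spread over many genes and also heaped at some. The 95744 summits had 30818 different nearest genes, 16601 of them protein-coding. A single summit was counted for 11141 genes (36.2%), while 1292 genes were nearest to 10 or more. The latter count was 254 with a −log10 q of at least 5 and 2549 when only protein-coding TSSs were used. The most were counted at Gse1 (68), Dnmt3a (61), the autophagy gene Atg7 (55), Lpin1 (49), Dtnb (47), Rnf220 (47), Adcy3 (44), Camta1 (44), Rbfox3 (44) and the small RNA gene Gm25283 (44). The median fold of their summits ran from 2.49 at Gm25283 to 5.01 at Adcy3, around the median of the whole list (4.47), and the word was at 8 or fewer of the summits of each gene except Atg7. The 68 summits of Gse1 spread over 348 kb with a median fold of 4.17 and ATGGCNGC at 3, although the highest reached 25.8. The 61 of Dnmt3a, a de novo DNA methyltransferase, spread over 122 kb with folds of 2.77 to 9.44 and the word at 4.

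Atg7 and Gm25283 differed from the others. Of the 55 summits of Atg7, 25 had the word. Over the block, summits lay at 15 of 27 copies of the first chromosome 6 stretch printed above and at 8 of 31 copies of the second. The 44 summits nearest to Gm25283 lay within 49.8 kb (chr6:47636697-47686517) at a median spacing of 491 bp, with folds of 1.49 to 3.46, and 0 of 44 had the word, where a limit of 3 counts, used here in place of a Wilson interval, allows a share of up to 6.82%. Where copies of a sequence are identical or nearly so, the assignment of reads is uncertain, and its part in these blocks was not tested.

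Counted at the start sites alone, the genes with most summits within 1 kb of any TSS were Dnmt3a (18), the cytolinker gene Plec (15), Gnas (14), Abr, Adcy3 and Mras (13 each), and Arhgap27, Gse1, Kdm2b and Rreb1 (12 each). These genes had between 6 and 19 annotated TSSs, and the highest fold among their near-TSS summits ranged from 6.19 at Kdm2b, a subunit of a variant Polycomb complex, to 11.7 at Rreb1.

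Chromosome 12 stood apart from the others in peaks per protein-coding gene and in the share of summits near a TSS. It had 9.16 peaks per protein-coding gene where the other 19 chromosomes had 3.11 to 5.34. Per Mb it had 50.4 peaks, below chromosomes 11 (59.9) and 17 (51.3). Of its summits, 26.5% (25.4 to 27.7) lay within 1 kb of a TSS where the others had 32.6% to 41.8%. Dnmt3a, Lpin1, Dtnb and Adcy3, which were among the genes named above for most nearest summits, are on its first 25 Mb. The excess was in the proximal part. Up to 75 Mb there were 14.1 peaks per protein-coding gene, a median fold of 4.70 and the word at 6.34% (5.62 to 7.14) of summits. Beyond 75 Mb there were 5.34 peaks per gene, a median fold of 3.89 and the word at 10.7% (9.35 to 12.1). On the other chromosomes together the values were 4.26 peaks per gene, 4.47 and 8.34% (8.16 to 8.52). A summit lay within 1 kb of 260 of 281 protein-coding genes (92.5%, 88.8 to 95.1) in the proximal part, 72.9% in the distal part and 67.0% elsewhere. The proximal part held 1.29% of protein-coding genes and 17 of the 154 protein-coding genes nearest to 20 or more summits (11%, 7.01 to 17.0). The boundary of 75 Mb was set after the data were seen. Among summits within 1 kb of a TSS the median fold was 5.30 in the proximal part, 3.75 in the distal part and 4.54 on the other chromosomes. Dnmt3a, Lpin1, Dtnb and Adcy3 are therefore counted in a stretch with more peaks per gene and per Mb than the rest of chromosome 12. The cause of the excess per gene was not tested, and the copy number of the region in these cells was not analysed here.

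The X chromosome had the fewest peaks per Mb (19.5, against 25.1 to 59.9 on the autosomes). Per protein-coding gene it had 3.36 peaks, more than the 3.11 of chromosome 7. It had the highest share of peaks in the top 10%, 12.3% (11.2 to 13.5), an interval that overlapped those of chromosomes 3, 6, 13, 16 and 18. The share with the word was 6.97% (6.13 to 7.90) on X and 6.86% to 9.08% on the autosomes.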

How the data were processed

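One REX1 ChIP-seq library and its control were made from mESCs. Per the labels and the methods of the study, the authors trimmed reads with Trim Galore 0.6.7, aligned them with Bowtie2 2.5.0 to mm10 masked at positions that differ between the parental strains, merged allele-sorted reads with SAMtools 1.10 and called narrow peaks with MACS2 2.2.7.1. Which alignments were kept where reads matched several places is not given in the sources used here. The deposited list holds a fold over control (a linear ratio), −log10 p and −log10 q, and a score, which was not used. It holds no read totals.

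Rows on chromosome Y and scaffolds (306) were left out. Peaks were ranked by fold, with ties ordered by −log10 q. Summits were matched to the nearest TSS of GENCODE M21, and sequence was read from GRCm38.p6 with Python 3.11.15, pandas 2.3.3 and scipy 1.17.1. Words were searched on both strands within 50 bp of the summit and in windows centred 300 bp away. Functions were tested on simulated data.

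Genes named were the nearest of the 20 strongest peaks, the 10 with most nearest summits, the 10 with most summits within 1 kb of a TSS, all members of the X-inactivation centre and REX1 and YY1 lists, and up to 4 members with the highest fold in each other list. Some members that this rule names are not reported here. The peaks, lists, words and comparisons were chosen with earlier results of these data known. Alternatives were stricter −log10 q minima of 2 and 5, other distances and windows, protein-coding TSSs, ranking by −log10 q, leaving out soft-masked summits or start codons, and, added after seeing the data, leaving out chromosome 12. The core ATGGC, the bases before the word, its division by location, its identical surroundings and the regions of chromosome 12 were also taken up after seeing the data. With 1 library there was no test and no replicate to leave out.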

Additional observations from a re-analysis of the deposited data

How the results depend on the processing

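With 1 library no replicate could be left out. No paired analysis was possible because no replicates exist. Of 49 alternatives, 29 moved a value beyond its 95% interval or, for counts, beyond 1.5 times, 1 turned its direction, and 19 left it within. These 19 include all 8 without chromosome 12, an alternative chosen after seeing the data. A minimum −log10 q of 5 left 52586 peaks, 57.2% of protein-coding genes with a summit within 1 kb and 254 genes nearest to 10 or more summits. It gave near-TSS shares of 47.2% (top 10%) and 45.8% (bottom 10%), and shares with ATGGCNGC of 30.6% and 6.96%. A minimum of 2 gave a near-TSS share of 41.2% in the bottom 10%. The gene share was 61.1% within 300 bp, 71.5% within 3 kb and 66.6% without soft-masked summits. The top and bottom near-TSS shares were 36.2% and 23.4% within 300 bp, 54.9% and 50.9% within 3 kb, 41.3% and 33.6% with protein-coding TSSs, and 50.2% and 31.1% ranked by −log10 q. The shares with ATGGCNGC were 18.6% and 1.92% within 25 bp, 27.3% and 4.99% within 100 bp, 28.2% and 4.12% without soft-masked summits, and 26.1% in the top 10% ranked by −log10 q. With protein-coding TSSs, 2549 genes were nearest to 10 or more summits. The share of copies on the gene strand was 57.7% within 300 bp, 56.8% with protein-coding TSSs and 46.2% without start codons, which here all lay on that strand, so that their removal lowered it by construction. In every alternative run for both, the top 10% exceeded the bottom 10%, but the intervals of the near-TSS shares overlapped at a −log10 q of at least 5. The list holds no read totals, so what depth limits could not be assessed.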
